A study of Mus musculus with 28 samples.

Results

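The genes described here are the chromatin remodellers, histone demethylases and histone deacetylases of the data set. They comprise every gene whose name begins with Kdm, Hdac, Sirt, Smarc or Arid, or with Chd and a digit, together with Ehmt1, Ehmt2, Ezh1, Ezh2, Crebbp and Ep300, provided that its mean normalized count over all libraries was at least 20. This rule gave 75 genes of 22919 listed, and 77 names matched before the count minimum. The minimum left out Hdac10 with a mean of 18.8 and Arid3c with 5.52, while Smarca5-ps with 22.6, Kdm8 with 90.8 and Sirt4 with 93.2 were the lowest genes it kept. Of the 75, 2 code for no protein: Chd3os, an antisense transcript of Chd3, and the pseudogene Smarca5-ps.

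Nascent RNA was measured by Bru-seq: a pulse of bromouridine marks transcripts while they are being made, and an antibody then pulls out the marked RNA for sequencing. The samples were cultures of CD1 mouse forebrain, made from cortices and hippocampi pooled over embryos of day 18 and described as neurons, astrocytes and oligodendrocyte precursor cells. All cultures received lentivirus on day 14 in vitro, whose short hairpin was either a control (shCtrl) or aimed at Rai1 (shRai1), and all were harvested on day 17 after 4 h in water as vehicle, in 1 µM tetrodotoxin (TTX) or in 20 µM bicuculline (BIC). Bromouridine at 2 mM was present for the last 20 min. TTX blocks voltage-gated sodium channels and so silences action potentials, whereas BIC blocks inhibitory GABA-A receptors and so raises firing. The shCtrl arm held 2 libraries in vehicle, 3 in TTX and 2 in BIC, and the shRai1 arm held 3 in each treatment. By their titles, shCtrl vehicle held replicates 1 and 2, shCtrl BIC held replicates 2 and 3, and every other group held 1 to 3. The titles do not say whether equal numbers mark cultures prepared together, so a difference between preparations cannot be told apart from these comparisons. No non-infected cultures were among these libraries, so the virus was common to all groups.

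Chromatin regulators set how tightly DNA is packed and which genes can be read. Remodelling ATPases of the SWI/SNF, ISWI and CHD families move or evict nucleosomes, demethylases and methyltransferases remove or add methyl groups on histone lysines, and deacetylases remove the acetyl groups that CREBBP and EP300 add. In neurons, several of these proteins change position or activity with firing: class IIa deacetylases shuttle between nucleus and cytoplasm, and CREBBP is a coactivator of the activity-dependent factor CREB. Rai1 itself codes for a chromatin-binding protein, and its loss causes Smith-Magenis syndrome.

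The deposited data were summaries: DESeq2 comparison tables over 16 libraries, and pooled FPKM values, a level scaled to gene length and library size, for each condition. No counts or depths per library were used here, so depth per library is unknown and the spread over libraries enters only through the standard errors (SE) of the tables. A list of 20 activity-regulated genes was chosen with earlier results of these data known, so it is no independent check of the treatments. All 20 were called lower under TTX in both arms, where 29.0% of all genes were called in shCtrl and 33.2% in shRai1. Under BIC 13 were called higher and 2 lower in shCtrl, and 17 higher and 2 lower in shRai1. Of all genes, 39.8% and 51.1% were called under BIC in shCtrl and shRai1. The targeted gene was not called lower in the libraries labelled shRai1. A short hairpin acts on finished RNA, after transcription, so nascent RNA of its target need not fall. In the authors' deposited table its log2 change against shCtrl was 0.16 in vehicle, -0.12 in TTX and 0.03 in BIC, none past the threshold, so these data do not check the shRNA label either way. The unadjusted p of the value in TTX was 0.0523, Rai1 was called lower under TTX against vehicle in shRai1 (-0.21, adjusted p = 0.00598, in the authors' deposited table), and its deposited interval is also that of other listed genes. In bulk cultures, fewer cells of a type and less RNA per cell cannot be told apart.

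The levels of the chromatin genes spanned a wide range. Their median pooled FPKM in shCtrl vehicle was 11.8, against 9.18 over all genes with a mean count of at least 20, and it ranged from 0.790 for Chd1l to 31.8 for Chd3. Over all 6 conditions the highest mean FPKM belonged to Kdm6b at 32.5, Chd3 at 29.7 and Smarcd1 at 28.6, and the lowest to Chd1l at 1.19, Kdm5d at 1.37 and Hdac8 at 1.65. Kdm6b is an H3K27 demethylase, Chd3 an ATPase of the NuRD complex and Smarcd1 a SWI/SNF subunit. The genes were longer than the rest, with a median interval of 49443 bp against 28822.5 bp, and their median normalized count was 1396 against 360. For 13 members, Arid1a, Chd2, Chd4, Chd8, Hdac5, Hdac7, Kdm1b, Kdm5a, Kdm7a, Sirt2, Sirt3, Sirt7 and Smarca2, the deposited interval is also that of another listed gene, so their reads may not be wholly their own.

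Within each arm, each drug changed the nascent RNA of 41.3% to 56.0% of these genes, in both directions. A gene is called here at an adjusted p under 0.05. Under TTX, 31 of 75 were called in shCtrl (18 higher, 13 lower), beside 29.0% of all 14067 genes with a mean count of at least 20, and 37 were called in shRai1 (24 higher, 13 lower), beside 33.2%. Under BIC, 36 were called in shCtrl (21 higher, 15 lower), beside 39.8%, and 42 in shRai1 (23 higher, 19 lower), beside 51.1%. Averaged over both arms, which share no library, TTX gave 36 calls (22 higher, 14 lower), beside 42.1%, and BIC gave 44 (23 higher, 21 lower), beside 57.6%. Under both drugs the averaged share of chromatin genes, 48.0% and 58.7%, was near that of all genes. The split by direction under TTX leaned the other way from that of all genes, of which 1783 were called higher and 2291 lower in shCtrl, 2077 and 2588 in shRai1 and 2722 and 3147 averaged over arms. Under BIC all genes gave 2780 higher and 2816 lower in shCtrl, 3510 and 3675 in shRai1 and 3803 and 4227 averaged. The median log2 change of the members under TTX was 0.02 in shCtrl, 0.07 in shRai1 and 0.06 averaged over arms, beside -0.00, 0.00 and -0.00 over all genes. Under BIC it was -0.05, -0.02 and -0.05, beside -0.04, -0.02 and -0.04. The difference in split or median between members and other genes was not tested.

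The direction of response was shared by the arms. Of the members called under TTX, 26 were called in the same direction in both arms, which is 83.9% of the shCtrl calls and 70.3% of the shRai1 calls, and 0 were called in opposite directions. Over all genes the shares were 68.8% and 60.1%, with 27 opposite calls. Under BIC, 35 members were called in the same direction in both arms, 97.2% of the shCtrl calls and 83.3% of the shRai1 calls, where all genes gave 90.9% and 70.8%. Changes past 2-fold were few: 3 members under TTX in each arm, 5 under BIC in shCtrl and 2 under BIC in shRai1. Over all genes the corresponding shares were 3.04% and 2.72% under TTX and 6.80% and 7.64% under BIC.

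In what follows, a gene rose, fell or passed by its change averaged over the arms, unless an arm is named. Counts by role stand beside 42.1% of all genes called under TTX and 57.6% under BIC. A role holds at most 10 genes, and no role was tested against those shares. Of the 36 averaged calls under TTX, 26 were also called in each arm, 9 in 1 arm (Arid2, Chd5, Chd7, Ehmt1, Hdac7, Hdac8, Kdm7a, Smarcb1 and Smarcd3) and Arid1a in neither. Of the 44 under BIC, 35 were called in each arm, 5 in 1 (Chd3, Chd5, Kdm4b, Kdm4d and Smarca4) and 4 in neither (Ep300, Hdac8, Kdm4a and Sirt5). Conversely, 7 genes without an averaged call were called in 1 arm under TTX (Arid4b, Chd8, Ezh2, Kdm4b, Kdm5a, Kdm5d and Kdm6a) and 3 under BIC (Hdac5, Kdm2a and Smarcd2). The pooled FPKM of the shCtrl arm gave a second view of size. With 0.1 added to each FPKM, its log2 ratio to vehicle was under 0.5 times the deposited log2 change, with the same sign, for 5 of 31 called members under TTX (Arid4a, Arid5a, Hdac1, Hdac11 and Smarcd2) and 11 of 36 under BIC (Crebbp, Hdac6, Hdac9, Kdm1a, Kdm1b, Kdm2b, Kdm4c, Smarca2, Smarca5, Smarcc1 and Smarcd3). The ratio had the other sign for 4 and 3. With 1 added instead, Chd1 (-0.22 against -0.51) and Ezh1 (0.22 against 0.48) under TTX also lay under 0.5 times.

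**Figure D1:**
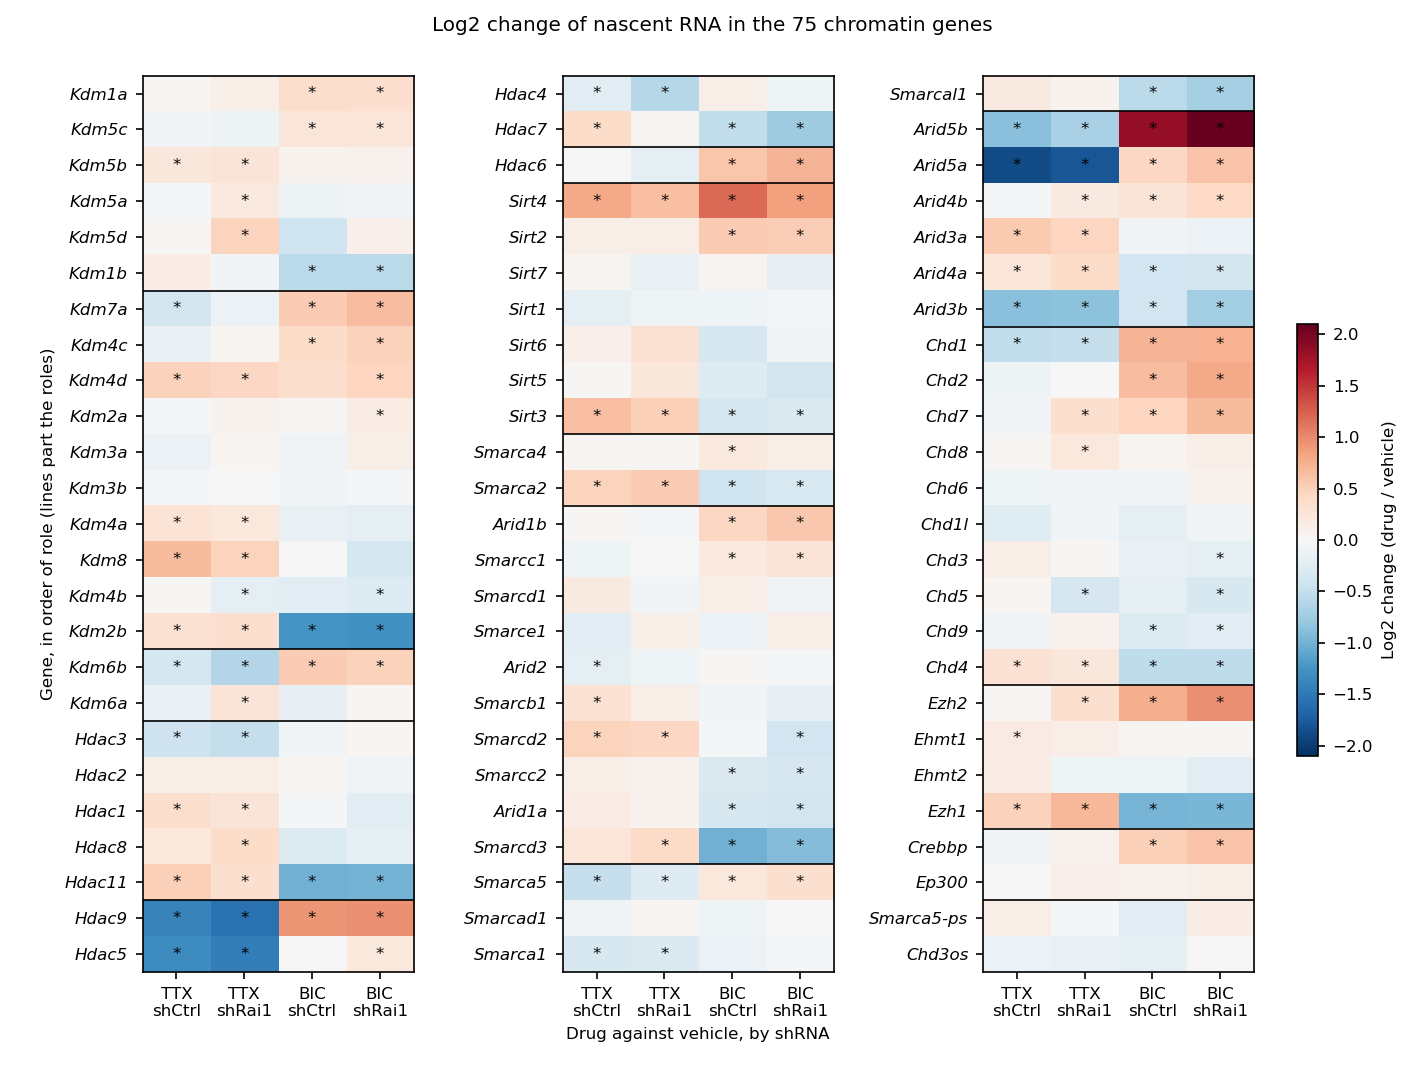
Colour gives the log2 change of drug against vehicle for each of the 75 genes (rows, ordered by role, with lines between roles) in each arm (columns), and a star marks an adjusted p under 0.05. The strongest blue lies in Hdac9, Hdac5 and Arid5a under TTX, the strongest red in Arid5b under BIC, and the columns of the arms resemble each other.

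In the count fit, the 7 genes with the widest swings between the drugs, by the BIC change minus the TTX change, were Arid5b at 2.74, Hdac9 at 2.42, Arid5a at 2.36, Kdm2b at -1.60, Ezh1 at -1.55, Hdac5 at 1.5 and Hdac11 at -1.43. Arid5b, Hdac9 and Arid5a were lower under TTX and higher under BIC, Kdm2b, Ezh1 and Hdac11 were higher under TTX and lower under BIC, and Hdac5 was lower under TTX without an averaged call under BIC. The TTX rise of Kdm2b is not seen in pooled FPKM, 12.9 in vehicle and 12.8 in TTX, and its BIC change alone, -1.26, is smaller than the swings of Hdac11 and of the next gene, Smarcd3, at -1.29, so its place among the 7 depends on the table. In pooled FPKM of shCtrl, Sirt3 had log2 ratios of 0.44 in TTX and -0.85 in BIC. Those of Ezh1 (0.26 and -0.70) and Hdac11 (0.22 and -0.79) were smaller, so their places among the 7 depend on the table too. The promoters of these 7 are shown, together with that of Ezh2, which moved against Ezh1 under BIC. Each is the 250 bases before an annotated start site in GRCm38.p6, 5′ to 3′ on the gene's strand. Capitals mark a match to a searched motif. The Arid5a window is chr1:36307483-36307732 on the plus strand, that of Arid5b is chr10:68278727-68278976 on the minus strand, that of Hdac9 is chr12:34528890-34529139 on the minus strand and lies at 1 of 2 listed starts, that of Hdac5 is chr11:102230173-102230422 on the minus strand, that of Hdac11 is chr6:91156565-91156814 on the plus strand, that of Ezh1 is chr11:101226464-101226713 on the minus strand, that of Ezh2 is chr6:47595031-47595280 on the minus strand, and that of Kdm2b is chr5:122900351-122900600 on the minus strand, at 1 of 4 listed starts.
Arid5a: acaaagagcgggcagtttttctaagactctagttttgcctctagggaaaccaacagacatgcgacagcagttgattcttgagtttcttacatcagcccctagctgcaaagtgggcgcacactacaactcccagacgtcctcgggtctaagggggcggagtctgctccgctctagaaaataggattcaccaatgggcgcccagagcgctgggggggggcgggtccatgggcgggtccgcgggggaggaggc
Arid5b: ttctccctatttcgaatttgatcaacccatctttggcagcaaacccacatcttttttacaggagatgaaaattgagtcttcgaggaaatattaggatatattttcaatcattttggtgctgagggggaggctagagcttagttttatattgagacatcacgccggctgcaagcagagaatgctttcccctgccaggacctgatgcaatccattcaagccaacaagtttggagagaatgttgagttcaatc
Hdac9: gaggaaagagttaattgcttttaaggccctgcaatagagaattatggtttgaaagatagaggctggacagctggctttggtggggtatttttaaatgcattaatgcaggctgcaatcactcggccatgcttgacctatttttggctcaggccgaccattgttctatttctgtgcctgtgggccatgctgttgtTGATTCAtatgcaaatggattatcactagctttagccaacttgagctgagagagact
Hdac5: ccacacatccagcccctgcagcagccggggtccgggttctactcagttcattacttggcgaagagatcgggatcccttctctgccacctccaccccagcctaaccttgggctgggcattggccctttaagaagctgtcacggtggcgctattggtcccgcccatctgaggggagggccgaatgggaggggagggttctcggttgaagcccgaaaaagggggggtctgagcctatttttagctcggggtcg
Hdac11: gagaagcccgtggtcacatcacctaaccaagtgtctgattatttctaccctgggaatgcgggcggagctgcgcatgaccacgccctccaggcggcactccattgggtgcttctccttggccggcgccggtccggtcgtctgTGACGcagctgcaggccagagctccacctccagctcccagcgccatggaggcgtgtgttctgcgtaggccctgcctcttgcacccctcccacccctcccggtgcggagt
Ezh1: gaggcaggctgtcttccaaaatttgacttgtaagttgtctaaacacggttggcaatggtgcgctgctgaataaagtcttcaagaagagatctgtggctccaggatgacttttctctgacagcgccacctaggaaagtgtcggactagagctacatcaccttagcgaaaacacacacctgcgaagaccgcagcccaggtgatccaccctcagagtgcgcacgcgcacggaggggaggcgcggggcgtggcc
Ezh2: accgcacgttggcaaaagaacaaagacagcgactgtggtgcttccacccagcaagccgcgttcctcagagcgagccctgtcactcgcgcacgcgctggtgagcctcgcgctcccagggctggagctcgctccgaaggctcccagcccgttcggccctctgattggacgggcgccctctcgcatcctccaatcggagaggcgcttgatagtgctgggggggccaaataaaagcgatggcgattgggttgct
Kdm2b: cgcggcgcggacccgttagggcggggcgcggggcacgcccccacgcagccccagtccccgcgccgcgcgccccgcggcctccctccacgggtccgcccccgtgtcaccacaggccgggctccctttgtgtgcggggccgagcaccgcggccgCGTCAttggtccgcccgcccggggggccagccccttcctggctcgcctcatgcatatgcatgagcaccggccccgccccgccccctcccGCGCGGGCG

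The motifs searched, on both strands, were the cAMP response element (CRE) TGACGTCA and its short core TGACG, which lies inside it, the AP-1 site TGANTCA, the EGR site GCGNGGGCG and the E-box CACGTG. These are the letters bound by CREB, FOS and JUN, EGR proteins and bHLH factors. Windows were found for 58 of the 75 genes, 77 windows in all. The full CRE was in 0 of the 77, and in 1.55% of all 32851 windows. The short core was in 26.0% of the members' windows and 17.8% of all, AP-1 in 6.49% and 6.75%, EGR in 10.4% and 4.70%, and the E-box in 6.49% and 6.02%. Of the printed windows, that of Hdac9 holds an AP-1 match, that of Hdac11 a short core and that of Kdm2b a short core (read as CGTCA from the other strand) and an EGR match, and those of Arid5a, Arid5b, Ezh1, Ezh2 and Hdac5 hold none of these letters. The matches of Hdac9 and Kdm2b depend on the start chosen. The other window of Hdac9 holds no match, and of the other 3 windows of Kdm2b, 2 hold the short core alone and 1 holds none. In G and C content the printed windows were at 80.8% for Kdm2b, 65.2% for Hdac11, 63.6% for Ezh2 and 60.8% for Hdac5. Arid5a was at 58.0%, Ezh1 at 55.2%, Hdac9 at 43.6% and Arid5b at 42.0%, where the median over all windows was 52.4%. The other windows of Kdm2b ranged from 58.4% to 78.0%, so its value also depends on the start chosen.

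Among the ARID proteins outside SWI/SNF, which bind DNA through an AT-rich interaction domain, the paralogues Arid5a and Arid5b were both lower under TTX and higher under BIC. Arid5b (mm9 chr10:67558341-67741474) had a pooled FPKM in shCtrl of 7.67 (5.51 to 9.83) in vehicle, 5.2 (3.58 to 6.83) in TTX and 27.4 (21.1 to 33.7) in BIC, with the authors' bounds in parentheses, and the interval in BIC lies wholly above both others. Its log2 change averaged over arms was -0.78 ± 0.05 (SE) under TTX (adjusted p = 1.03e-58) and 1.96 ± 0.05 under BIC, or 3.9-fold. In the authors' deposited table the BIC change of Arid5b was 1.85 ± 0.08 in shCtrl and 2.08 ± 0.06 in shRai1 (adjusted p = 1.5e-261). Arid5b codes for a partner of the demethylase PHF2.

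Arid5a (mm9 chr1:36364578-36380874) is known as an RNA-binding protein that stabilises cytokine transcripts. Its pooled FPKM in shCtrl was 9.4 (6.92 to 11.9) in vehicle, 6.03 (4.34 to 7.72) in TTX and 19.8 (15.2 to 24.4) in BIC. In the count fit it had the largest fall of all members under TTX, -1.84 ± 0.09 averaged over arms (0.279-fold, adjusted p = 2.03e-93), and it rose by 0.52 ± 0.09 under BIC (adjusted p = 3.68e-08). The FPKM moved in the same directions, with a smaller fall under TTX and a larger rise under BIC than the fitted changes. Of the other ARID genes of this role, Arid3a rose under TTX by 0.50 ± 0.08 and Arid4a rose under TTX by 0.32 ± 0.05 and fell under BIC (-0.39 ± 0.06). Arid4b, which like Arid4a codes for a subunit of the Sin3 deacetylase complex, rose under BIC by 0.34 ± 0.05. Arid3b fell in the count fit under both drugs, -0.87 ± 0.08 under TTX and -0.56 ± 0.09 under BIC, but its pooled FPKM was 5.0, 5.04 and 7.1 in vehicle, TTX and BIC, so its direction depends on the table.

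Class IIa deacetylases carry little catalytic activity of their own and repress MEF2 targets. Under TTX, 3 of the 4 genes were called lower and 1 higher, averaged over arms, and under BIC 1 was called higher and 1 lower. The shares called were 100% and 50.0%, beside 42.1% and 57.6% of all genes. Hdac9 (mm9 chr12:34732447-35601767, the longest interval of the 75 at 869321 bp) had a pooled FPKM in shCtrl of 15.6 (11.6 to 19.5) in vehicle, 5.67 (3.97 to 7.37) in TTX and 21.3 (16.1 to 26.5) in BIC. The TTX value lies below the bounds of both others, and the vehicle and BIC bounds overlap. Averaged over arms Hdac9 changed by -1.48 ± 0.14 under TTX (adjusted p = 4.4e-26) and by 0.94 ± 0.14 under BIC (adjusted p = 3.1e-10).

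Hdac5 (mm9 chr11:102057061-102091486) was lower under TTX in both arms. Its pooled FPKM in shCtrl was 30.9 (23.7 to 38.1) in vehicle, 16.3 (12.2 to 20.3) in TTX and 35.3 (27.3 to 43.4) in BIC. Its averaged change was -1.39 ± 0.07 under TTX (0.382-fold, adjusted p = 2.06e-89) and 0.11 ± 0.07 under BIC (adjusted p = 0.223), with a 95% interval of -0.03 to 0.25 for the latter. In the authors' deposited table its BIC change was 0.00 ± 0.11 in shCtrl and 0.21 ± 0.09 in shRai1, and the latter passed (adjusted p = 0.0396). Hdac4 fell under TTX (-0.40 ± 0.05) and had a value of 0.02 ± 0.06 under BIC. Hdac7, the fourth gene of the class, went the other way: it rose under TTX by 0.22 ± 0.07 and fell under BIC (-0.63 ± 0.07).

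Among the zinc-dependent class I enzymes and the class IV enzyme Hdac11, 3 of 5 rose and 1 fell under TTX, and 2 fell under BIC. Hdac11 had the largest change of the role, -1.0 ± 0.08 under BIC (adjusted p = 1.17e-35) and 0.42 ± 0.07 under TTX. Its pooled FPKM in shCtrl was 22.7 (16.9 to 28.5) in vehicle, 26.5 (19.9 to 33) in TTX and 13.1 (9.34 to 16.9) in BIC, where the BIC bounds lie below those of TTX and, by a narrow margin, below those of vehicle. Hdac3, the catalytic subunit of the NCoR and SMRT corepressors, fell under TTX, at -0.47 ± 0.06 (adjusted p = 6.73e-15) and had a change of -0.00 ± 0.06 under BIC. Hdac1 and Hdac8 rose under TTX by 0.32 ± 0.08 and 0.30 ± 0.08, and Hdac8 fell under BIC (-0.25 ± 0.09). The pooled FPKM of Hdac1 was 9.15 in vehicle and 9.17 in TTX, nearly level, so its rise stands in the count fit alone. Hdac2, the paralogue of Hdac1, passed under neither drug, with 0.13 ± 0.07 and -0.01 ± 0.08. The tubulin deacetylase Hdac6, of class IIb, rose under BIC by 0.65 ± 0.08 (adjusted p = 2.27e-14), with pooled FPKM of 7.72 in vehicle and 9.33 in BIC, a log2 ratio of 0.27.

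Sirtuins are deacetylases that need NAD, and Sirt3, Sirt4 and Sirt5 code for the mitochondrial members. Under TTX 2 of 7 rose and 0 fell, and under BIC 2 rose and 2 fell. That is 28.6% and 57.1% called, beside 42.1% and 57.6% of all genes. Sirt4 (mm9 chr5:115928019-115934493) rose under both drugs, by 0.72 ± 0.14 under TTX (adjusted p = 3.47e-06) and 1.03 ± 0.15 under BIC (adjusted p = 1.61e-11). Its pooled FPKM in shCtrl was 3.0 (0.950 to 5.05) in vehicle, 4.56 (2.22 to 6.9) in TTX and 5.57 (3.06 to 8.08) in BIC, so the bounds of all 3 overlap, and with a mean normalized count of 93.2 it is among the least counted members. Sirt3 rose under TTX by 0.57 ± 0.07 and fell under BIC (-0.34 ± 0.08), with pooled FPKM of 13.9, 18.9 and 7.68 in vehicle, TTX and BIC. Sirt2 rose under BIC by 0.53 ± 0.08 in the count fit, while its pooled FPKM was 13.7 in vehicle and 12.4 in BIC, lower rather than higher. Sirt5 fell under BIC, at -0.33 ± 0.14 (adjusted p = 0.0382). The nuclear sirtuins Sirt1, Sirt6 and Sirt7 passed under neither drug.

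**Figure D2:**
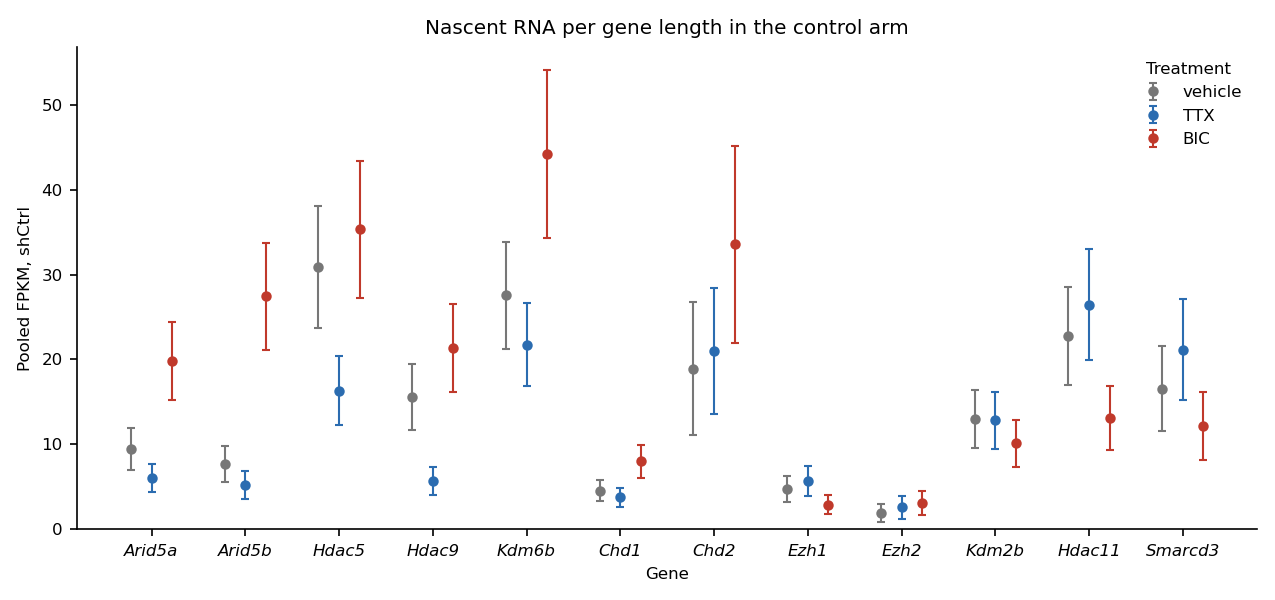
Points give the authors' pooled FPKM of 12 genes in shCtrl vehicle (grey), TTX (blue) and BIC (red), and bars give the authors' lower and upper bounds. Arid5b rises from 7.67 in vehicle to 27.4 in BIC and Hdac9 falls from 15.6 to 5.67 in TTX. For each of Ezh1, Ezh2, Kdm2b, Chd2 and Smarcd3 the 3 intervals overlap.

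Lysine demethylases divide by the mark they remove. Of the 6 genes acting on H3K4, only Kdm5b was called under TTX averaged over arms, with a rise of 0.26 ± 0.05. Under BIC Kdm1a rose by 0.36 ± 0.05 and Kdm5c by 0.25 ± 0.06, and Kdm1b fell (-0.57 ± 0.09). The pooled FPKM of Kdm1a was 17.3 in vehicle and 17.5 in BIC, much nearer to no change. Kdm1a and Kdm1b code for flavin-dependent enzymes and the Kdm5 genes for JmjC enzymes; Kdm5c is X-linked and mutated in intellectual disability. Its Y-linked counterpart Kdm5d passed under neither drug, with 0.25 ± 0.11 and -0.15 ± 0.12, and neither did Kdm5a, with 0.09 ± 0.05 and -0.09 ± 0.05. In shRai1 alone both passed under TTX, with 0.47 ± 0.15 for Kdm5d and 0.20 ± 0.06 for Kdm5a in the authors' deposited table.

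Of the 10 demethylases for H3K9 and H3K36, 4 rose and 1 fell under TTX, and 3 rose and 3 fell under BIC. These shares, 50.0% and 60.0%, lie near the 42.1% and 57.6% of all genes. In the count fit Kdm2b (mm9 chr5:123320685-123439101), which brings a variant Polycomb complex to CpG islands, had the largest fall of all members under BIC, -1.26 ± 0.06 averaged over arms (0.417-fold, adjusted p = 6.75e-86), and a rise of 0.34 ± 0.06 under TTX. Its pooled FPKM in shCtrl fell less, from 12.9 (9.55 to 16.3) in vehicle to 10.1 (7.37 to 12.9) in BIC, and was 12.8 in TTX. Kdm7a moved the other way, with -0.26 ± 0.06 under TTX and 0.59 ± 0.06 under BIC. Kdm8 and Kdm4a rose under TTX by 0.56 ± 0.14 and 0.26 ± 0.06, and Kdm4c rose under BIC by 0.44 ± 0.05. Kdm4d rose under both, by 0.46 ± 0.11 and 0.41 ± 0.12, and Kdm4a and Kdm4b fell under BIC, at -0.17 ± 0.07 and -0.25 ± 0.06. For Kdm2b, Kdm4d and Kdm7a under TTX, the pooled FPKM moved slightly against the fitted change. Kdm2a, Kdm3a and Kdm3b passed under neither drug averaged over arms.

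Of the H3K27 demethylases, Kdm6b (also called Jmjd3) was lower under TTX and higher under BIC. Its pooled FPKM in shCtrl was 27.6 (21.3 to 33.9) in vehicle, 21.8 (16.8 to 26.7) in TTX and 44.2 (34.3 to 54.2) in BIC, with BIC above TTX beyond their bounds. Its averaged change was -0.49 ± 0.08 under TTX (adjusted p = 3.7e-09) and 0.50 ± 0.08 under BIC (adjusted p = 3.91e-09). The X-linked Kdm6a passed under neither averaged over arms, with 0.07 ± 0.07 and -0.06 ± 0.08, but was called higher under TTX in shRai1 in the authors' deposited table, by 0.28 ± 0.10 (adjusted p = 0.0200).

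The genes of the enzymes that add the H3K27 mark changed in opposite directions under BIC. Ezh1 and Ezh2 code for alternative catalytic subunits of Polycomb repressive complex 2, Ezh2 being typical of dividing cells and Ezh1 of mature ones. Ezh1 (mm9 chr11:101052429-101087764) rose under TTX by 0.59 ± 0.09 (adjusted p = 5.86e-10) and fell under BIC, at -0.97 ± 0.10 (adjusted p = 1.01e-19), with pooled FPKM in shCtrl of 4.75 (3.18 to 6.31), 5.69 (3.91 to 7.47) and 2.89 (1.76 to 4.01) in vehicle, TTX and BIC. Ezh2 (mm9 chr6:47480273-47545029) rose under BIC by 0.86 ± 0.09 (adjusted p = 1.72e-22) and its TTX change of 0.18 ± 0.08 did not pass. Its pooled FPKM was lower than that of Ezh1 in vehicle, 1.87 (0.809 to 2.93), and close to it in BIC, 3.03 (1.61 to 4.44). For Ezh1 and for Ezh2 the bounds in vehicle and BIC overlap. Among the H3K9 methyltransferases, Ehmt1 rose under TTX by 0.16 ± 0.05 and Ehmt2 passed under neither drug. The acetyltransferases Crebbp and Ep300 were called higher under BIC, Crebbp by 0.55 ± 0.05 (adjusted p = 1.35e-32) and Ep300 by 0.11 ± 0.05 at the edge of the threshold (adjusted p = 0.04999948 before rounding), and neither was called under TTX. The pooled FPKM of Crebbp was 13.3 in vehicle and 15.6 in BIC, a log2 ratio of 0.22.

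In the count fit the alternative ATPases of the SWI/SNF complex had opposite calls under BIC. Smarca2 rose under TTX by 0.50 ± 0.05 (adjusted p = 2.18e-20) and fell under BIC, at -0.37 ± 0.06 (adjusted p = 2.42e-10), whereas Smarca4, which codes for BRG1, had 0.04 ± 0.05 and 0.17 ± 0.05 (adjusted p = 0.00247 under BIC). In pooled FPKM both were slightly lower in BIC than in vehicle, 16.4 against 17.4 for Smarca2 and 22.4 against 23.6 for Smarca4, so the contrast stands in the count fit alone. Of the 10 core and accessory subunits, 4 rose and 1 fell under TTX, and 2 rose and 3 fell under BIC. The share called was 50.0% under each drug, near the 42.1% and 57.6% of all genes. Smarcd3, a subunit of the neuronal form, fell under BIC, at -0.96 ± 0.10 (adjusted p = 1.47e-20) and rose under TTX by 0.33 ± 0.09, with pooled FPKM of 16.5 (11.5 to 21.6), 21.2 (15.2 to 27.1) and 12.1 (8.13 to 16.1) in shCtrl vehicle, TTX and BIC, all overlapping. Smarcc2 and Arid1a fell under BIC, at -0.33 ± 0.06 and -0.36 ± 0.05, and Smarcc1 and Arid1b rose by 0.24 ± 0.05 and 0.50 ± 0.04. The pooled FPKM of Smarcc1 was 13.3 in vehicle and 13.3 in BIC. Under TTX the rises were those of Smarcd2 at 0.45 ± 0.10, Smarcd3, Smarcb1 at 0.21 ± 0.06 and Arid1a at 0.12 ± 0.05, and the fall was that of Arid2 at -0.15 ± 0.05. Smarcd1 and Smarce1 passed under neither drug.

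Among ISWI and other SNF2-family ATPases, Smarca5 (SNF2H) fell under TTX (-0.38 ± 0.05) and rose under BIC by 0.28 ± 0.05. Smarca1 (SNF2L) also fell under TTX (-0.32 ± 0.08), and its BIC change of -0.08 ± 0.08 did not pass. Smarcal1, which anneals DNA at stalled replication forks, fell under BIC, at -0.63 ± 0.06 (adjusted p = 9.37e-22), with pooled FPKM in shCtrl of 6.49 in vehicle and 3.6 in BIC. Smarcad1 passed under neither.

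The 10 CHD ATPases held 2 rises and 2 falls under TTX and 3 rises and 4 falls under BIC, or 40.0% and 70.0% called, beside 42.1% and 57.6% of all genes. Chd1, a remodeller of transcribed genes that binds H3K4 methylation, fell under TTX, at -0.50 ± 0.06 (adjusted p = 4.64e-16) and rose under BIC by 0.73 ± 0.06 (adjusted p = 3.81e-31), with pooled FPKM in shCtrl of 4.52 (3.26 to 5.77) in vehicle, 3.73 (2.63 to 4.84) in TTX and 7.97 (6.0 to 9.94) in BIC. Chd2, mutated in a childhood epilepsy, rose under BIC by 0.72 ± 0.05 (adjusted p = 3.82e-49), with pooled FPKM of 18.9 (11.1 to 26.8), 21 (13.5 to 28.5) and 33.6 (22 to 45.2), and its TTX change was -0.05 ± 0.05. Chd7 rose under BIC by 0.56 ± 0.05. Its averaged TTX change of 0.14 ± 0.05 passed but rests on shRai1, where the authors' deposited table gives 0.34 ± 0.06 against -0.06 ± 0.07 in shCtrl. The NuRD ATPases Chd3, Chd4 and Chd5 all fell under BIC, at -0.19 ± 0.07, -0.53 ± 0.06 and -0.26 ± 0.06, while under TTX Chd4 rose by 0.27 ± 0.05, Chd5 had an averaged change of -0.16 ± 0.06 that passed and Chd3 was at 0.08 ± 0.06. The TTX change of Chd5 was 0.04 ± 0.09 in shCtrl (adjusted p = 0.790) and -0.36 ± 0.08 in shRai1 (adjusted p = 6.56e-05) in the authors' deposited table. Chd9 fell under BIC (-0.27 ± 0.05). Chd6, Chd8 and Chd1l passed under neither drug averaged over arms, nor did Chd3os and Smarca5-ps. The interval of Chd3os ends just short of that of Chd3, and counting by strand is not stated in the sources used here, so reads of the pair may not be separate.

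Members called under both drugs were mostly called in opposite directions, at a share near that of all genes. TTX in shCtrl and BIC in shRai1 share no library. Of 20 members called in both, 17 had opposite directions and 3 the same (Arid3b, Kdm4d and Sirt4). The 17 are 85.0% of the members called in both, beside 84.0% of all such genes. In the pooled FPKM of shCtrl the TTX direction turns for Arid3b, Kdm4d, Kdm2b and Kdm7a, and with those directions 17 are again opposite, but the 3 with the same direction are Kdm2b, Kdm7a and Sirt4. The BIC directions of that recount remain those of the count fit. In pooled FPKM of shCtrl Arid3b was higher under both drugs, with log2 ratios of 0.012 in TTX and 0.50 in BIC. Its place among the opposite members of the recount thus depends on the table. In the count fit, lower under TTX and higher under BIC were Arid5a, Arid5b, Chd1, Hdac5, Hdac9, Kdm6b, Kdm7a and Smarca5, and higher under TTX and lower under BIC were Arid4a, Chd4, Ezh1, Hdac7, Hdac11, Kdm2b, Sirt3, Smarca2 and Smarcd2. These 17 are 54.8% of the TTX calls and 40.5% of the BIC calls, where over all genes opposite calls were 57.2% and 32.5%. With the arms exchanged, TTX in shRai1 and BIC in shCtrl, 14 of 19 were opposite, 37.8% and 38.9% of the calls, and all genes gave 41.3% and 34.5%. Those 14 are 73.7% of the members called in both, beside 77.6% of all such genes. The same-direction members were then Arid3b, Arid4b, Chd7, Ezh2 and Sirt4. Of these, Arid3b would count as opposite with its BIC direction in the pooled FPKM of shCtrl (0.50 against a fitted -0.39).

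**Figure D3:**
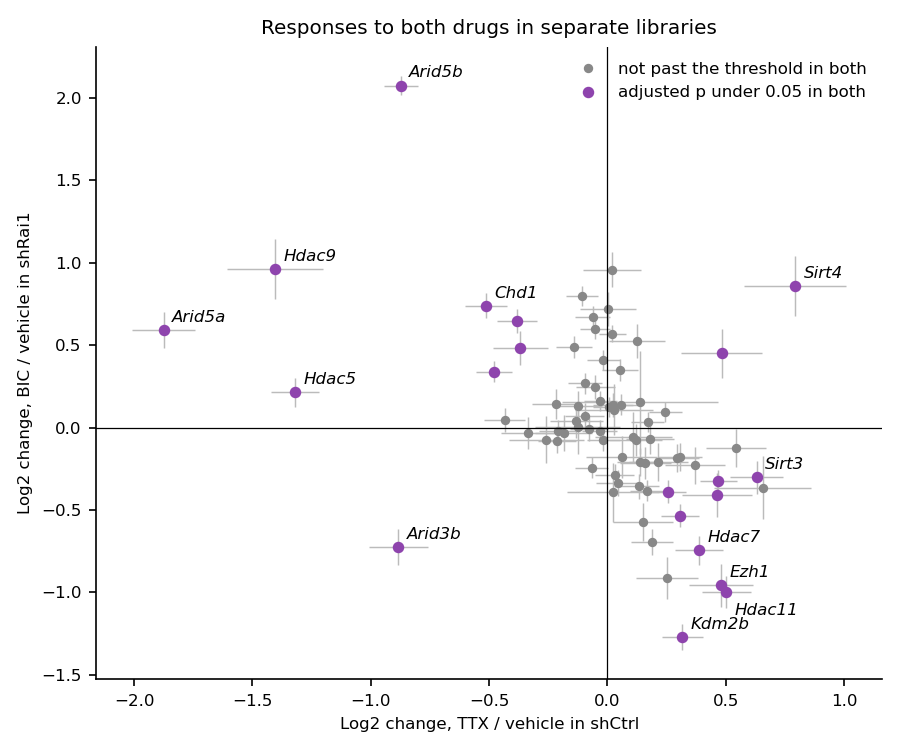
Each point is a gene, with its log2 change under TTX in shCtrl on the x axis and under BIC in shRai1 on the y axis, bars of 1 SE, and purple where both changes have an adjusted p under 0.05. Of the 20 purple points, 17 lie in the upper left or lower right, and Sirt4, Kdm4d and Arid3b lie in the other corners.

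In 18 pairs of closely related members, chosen with results of these data known and so no measure of how often paralogues differ, the BIC responses fell as follows: both genes were called in opposite directions in 6 pairs, in the same direction in 4, only 1 was called in 5 and none in 3. The widest gap was that of Ezh1 and Ezh2, -0.97 against 0.86, a difference of -1.82 with a 95% interval of -2.19 to -1.45. Such intervals use the largest error that any correlation between the genes allows. The others were Kdm1a against Kdm1b, Smarca4 against Smarca2, Smarcc1 against Smarcc2, Arid1b against Arid1a and Arid4b against Arid4a, the former of each higher. For Kdm1a, Smarca4 and Smarcc1 the rise, and so the opposite direction of the pair, stands in the count fit alone. Arid1a and Arid1b, alternative subunits of the same SWI/SNF complex, differed by -0.86 (-1.04 to -0.68). Under TTX 1 pair was called in opposite directions, Arid3a and Arid3b, with 0.50 and -0.87, where the pooled FPKM of Arid3b was 5.0 in vehicle and 5.04 in TTX. The interval of the difference left out 0 in 14 pairs under BIC and 9 under TTX. Chd1 and Chd2 did not differ beyond their errors under BIC, with a difference of 0.00 (-0.21 to 0.22), and did under TTX, with -0.45 (-0.65 to -0.25).

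**Figure D4:**
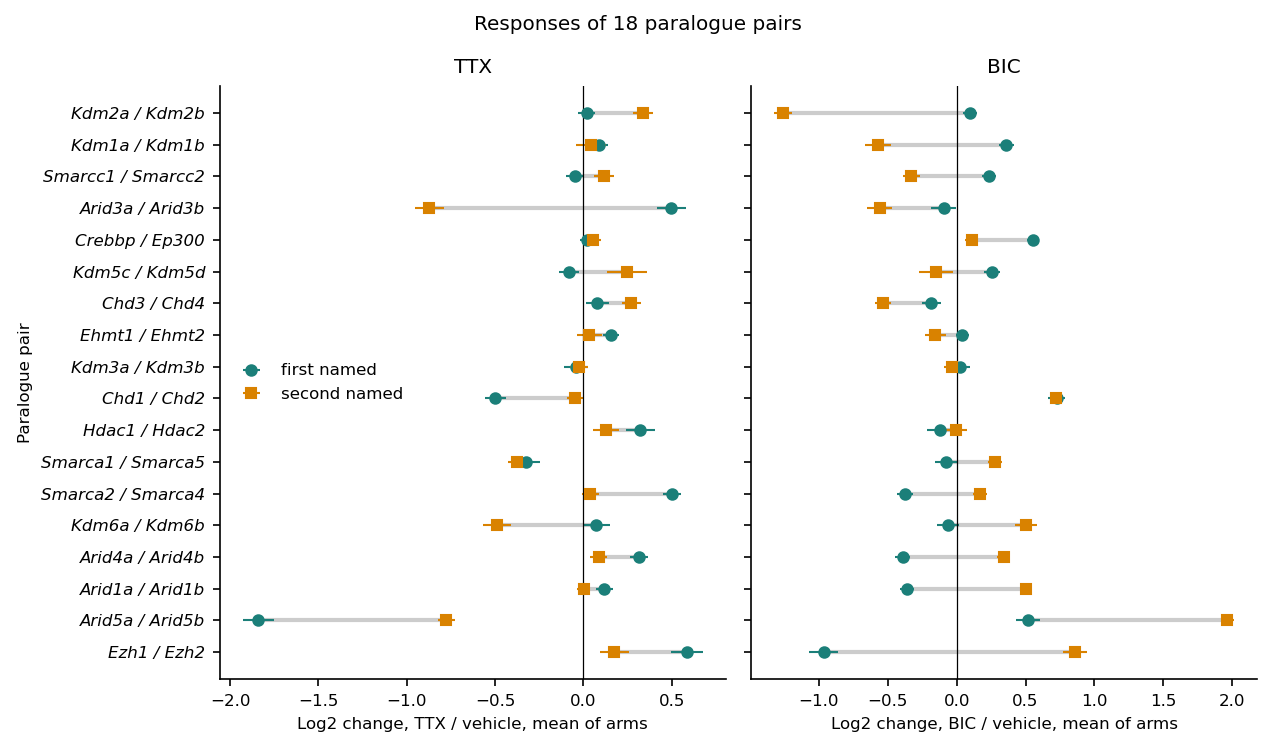
For 18 pairs of paralogues (rows), circles and squares give the log2 change of the gene named before and after the slash under TTX (left) and BIC (right), averaged over arms, with bars of 1 SE. Under BIC the markers of Ezh1 and Ezh2 lie at -0.97 and 0.86, on opposite sides of 0.

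Few of these genes differed between the libraries labelled shRai1 and those labelled shCtrl. In the authors' deposited table for vehicle, 1 of 75 was called, beside 0.867% of all genes, and 14 had an unadjusted p under 0.05. That gene was Chd7 (mm9 chr4:8617553-8795596), whose mutation causes CHARGE syndrome and which is needed in oligodendrocyte precursors. It was lower in shRai1, with a log2 change of -0.31 ± 0.07 in the authors' deposited table (DESeq2, adjusted p = 0.0126). In TTX 0 members were called by DESeq2, beside 0.0427% of all genes, with 2 at an unadjusted p under 0.05, and in BIC 0, beside 0.0142%, with 5. The share of all genes at that unadjusted p was not computed, here or in the paragraphs below. Counts at an unadjusted p are therefore not read as results about the members. The smallest p-values belonged to Hdac4, Chd5 and Hdac6 in TTX, at -0.18 ± 0.07, -0.16 ± 0.08 and -0.19 ± 0.11 in the authors' deposited table. In BIC they belonged to Hdac5, Arid3b and Hdac3, at 0.30 ± 0.10, -0.29 ± 0.13 and 0.18 ± 0.08 in the authors' deposited table. Averaged over the treatments, 0 members were called by the Wald test, beside 0.00718% of all genes, 6 had an unadjusted p under 0.05, and the smallest p-values were those of Chd7 at -0.10 ± 0.04, Arid4b at -0.08 ± 0.04 and Arid2 at -0.09 ± 0.04. The 95% interval of that average lay within ±0.5 for 75 of 75 members. In single treatments it did so for 69 in vehicle, 72 in TTX and 69 in BIC. Effects of opposite sign in different treatments cancel in the average.

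The response to TTX differed between the arms for 2 members, beside 1.22% of all genes, and 13 had an unadjusted p under 0.05, with no such share of all genes computed. Chd7 had a log2 change under TTX of -0.06 ± 0.07 in shCtrl and 0.34 ± 0.06 in shRai1 in the authors' deposited table, a difference of 0.40 ± 0.10 (Wald test, adjusted p = 0.0106). Hdac4 (mm9 chr1:93829332-94044970) changed by -0.21 ± 0.08 in shCtrl and -0.59 ± 0.07 in shRai1 in the authors' deposited table, a difference of -0.38 ± 0.11 (adjusted p = 0.0424). Chd5, a CHD ATPase typical of neurons, had the next smallest p, with a difference of -0.40 ± 0.12 (adjusted p = 0.0783). The TTX difference is the shRai1 effect in TTX minus that in vehicle, so for Chd7 it holds the vehicle difference given above. For Hdac4 and Chd5 it likewise holds vehicle differences of 0.20 ± 0.08 and 0.24 ± 0.09 in the authors' deposited table, neither past the threshold. The response to BIC differed for 0 members by the Wald test, beside 0.0287% of all genes, with 3 at an unadjusted p under 0.05, and the smallest p-values were those of Arid5b at 0.22 ± 0.10, Chd7 at 0.23 ± 0.10 and Kdm5d at 0.52 ± 0.24. For 52 members under TTX and 57 under BIC, the 95% interval of the difference between arms lay within ±0.5.

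The cell types that the labels name were all detected, with 15 of 15 neuron, 10 of 12 astrocyte and 10 of 13 oligodendrocyte-lineage markers at a mean count of at least 20, against 3 of 11 for microglia. Markers of the oligodendrocyte lineage are given beside the results for Chd7. Of the 13 genes, 10 had a mean count of at least 20, and of these 4 were called lower and 0 higher in shRai1 vehicle, 1 higher and 4 lower under TTX in shCtrl, and 6 higher and 0 lower under TTX in shRai1. Under BIC, where Chd7 rose, 0 were called higher in either arm, with 2 lower in shCtrl and 1 lower in shRai1. Between shRai1 and shCtrl, 1 was called higher and 0 lower in TTX, and 0 higher and 1 lower in BIC. The TTX difference between arms was called for 5, all higher in shRai1, among them Pdgfra, the growth factor receptor of precursor cells, at 1.86 ± 0.17. The summed FPKM of the list in shCtrl was 211 in vehicle, 185 in TTX and 210 in BIC. Its part in the result for Chd7 was not tested. The activity-regulated genes differed between the arms too: 0 of 20 were called higher and 5 lower in shRai1 vehicle, with a median log2 change of -0.44, and the TTX difference between arms was called higher for 4 and lower for 0, with a median of 0.51. Their part in the results for Chd7 and Hdac4 was not tested. Of the 15 neuron markers 1 was called higher and 0 lower in shRai1 vehicle, and of 10 astrocyte markers 0 and 1. The TTX difference between arms was called for 0 higher and 1 lower of the neuron markers, the splicing factor gene Rbfox3 at -0.40 ± 0.09 (Wald test, adjusted p = 0.00485), beside -0.38 for Hdac4, and for 0 of the astrocyte markers. Its part in the result for Hdac4 was not tested. Under the drugs the neuron markers moved in both directions. Under TTX 2 were called higher and 5 lower in shCtrl and 1 and 5 in shRai1, and under BIC 8 higher and 5 lower in each arm, led by the neurofilament gene Nefl at 2.85 ± 0.07 averaged over arms. Of the astrocyte markers 0 were called higher and 4 lower under TTX in shCtrl, 2 and 1 in shRai1, and under BIC 1 and 3 in shCtrl and 2 and 2 in shRai1. Their part in the drug responses of the chromatin genes was not tested. Summed FPKM of neuron markers in shCtrl was 1020, 935 and 1228 in vehicle, TTX and BIC, that of astrocyte markers 367, 308 and 291, and that of microglia markers 28.2, 27.5 and 36, with 1 of 11 microglia genes listed at 0 in vehicle.

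**Figure D5:**
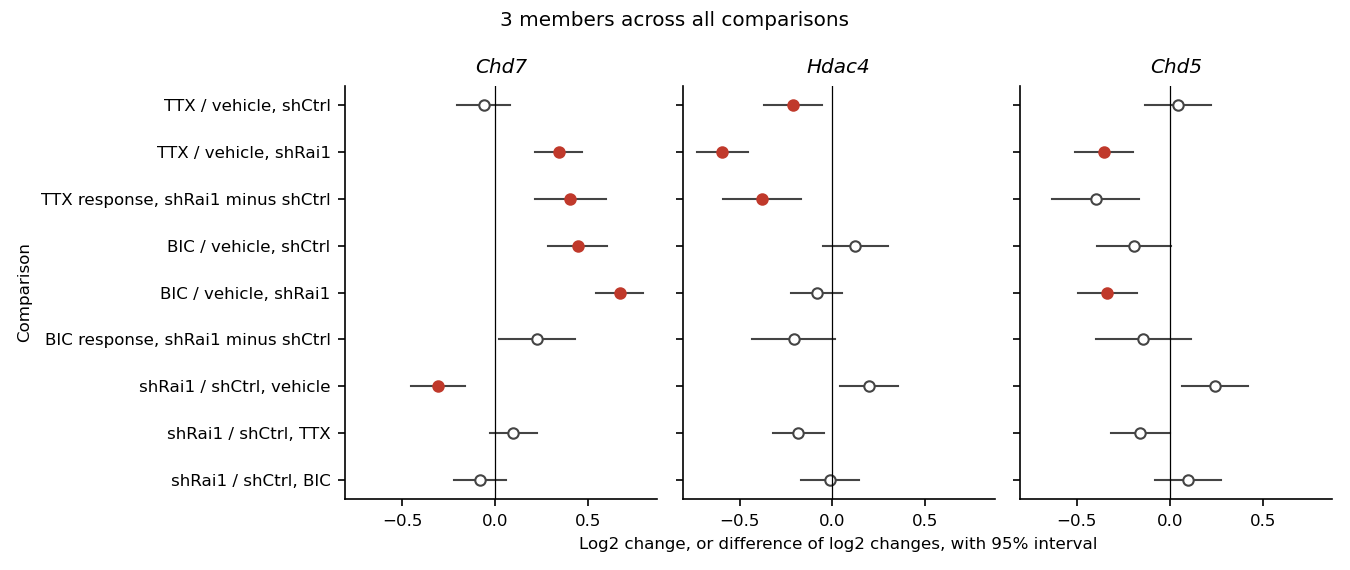
For Chd7, Hdac4 and Chd5, points give the log2 change or difference in each comparison (rows) with its 95% interval, filled where the adjusted p is under 0.05. Chd7 lies at -0.31 for shRai1 against shCtrl in vehicle and at 0.40 for the difference in TTX response, and the shRai1 effects in TTX and BIC include 0 for it.

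Partners of these enzymes that the naming rule does not reach were followed through 118 further genes, of which 104 had a mean count of at least 20. Averaged over arms, 29 of the 104 rose and 15 fell under TTX, and 26 rose and 40 fell under BIC, with medians of 0.04 and -0.10. That is 42.3% and 63.5% of them, beside 42.1% and 57.6% of all genes. In the comparisons of shRai1 with shCtrl and in the differences between arms, 0 of them were called by DESeq2 or the Wald test. At an unadjusted p under 0.05 there were 16 in vehicle, 3 in TTX and 7 in BIC, 16 and 1 for the differences in TTX and BIC response, and 12 averaged over treatments. The share of all genes at that unadjusted p was not computed. Among 16 other SWI/SNF subunits 1 rose and 8 fell under BIC, the largest changes being those of Bcl11a at -1.47 ± 0.06 and Bcl7a at -1.02 ± 0.07. Under TTX 5 rose and 3 fell, led by Actl6b, the neuronal actin-like subunit, at 0.64 ± 0.08. Among 22 partners of deacetylases in NuRD, Sin3 and CoREST complexes, 4 rose and 11 fell under BIC. These included Mta3 at -0.90 ± 0.06 and Mbd2, a reader of methylated DNA, at 0.81 ± 0.06.

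Of 22 other lysine methyltransferases, 8 rose and 7 fell under BIC, led by Whsc1 at 1.10 ± 0.07 and Setdb2 at 1.06 ± 0.15. Under TTX 6 rose and 3 fell, and the largest change was the fall of Dot1l, the H3K79 enzyme, at -0.75 ± 0.07. Of 12 other acetyltransferase genes 1 rose and 7 fell under BIC, with Kat6b at -0.62 ± 0.06. Among 15 Polycomb partners 3 rose and 4 fell under BIC, with a median of -0.10. The largest changes were the rises of Asxl3 and Jarid2, by 1.27 ± 0.09 and 1.07 ± 0.06. Of 13 genes of the INO80, SRCAP and BAZ group, Baz1a, the partner of Smarca5 in the ACF remodeller, had the widest swing: 2.58 ± 0.10 under BIC and -0.62 ± 0.09 under TTX. It moved in the direction of Smarca5 under each drug, by a larger amount under BIC. Of 6 other JmjC genes, 4 rose and 0 fell under BIC, with Uty, the Y-linked paralogue of Kdm6a, at 0.77 ± 0.08 and Jmjd1c at 0.48 ± 0.06.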

How the data were processed

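Bru-seq libraries of 16 cultures in 6 groups were used, and 12 ChIP-seq samples were not used here. The submitters' processing notes name the mm9 build, TopHat2 2.1.0, Bowtie2 2.2.6 and DESeq2 without roles. The authors deposited 7 comparison tables. Per the file headers, each holds a normalized count averaged over all libraries (a signal), the log2 change with its error, a Wald score and p-values before and after adjustment. A further deposited table gives pooled FPKM for each condition with a lower and an upper bound. Its knockdown columns do not follow the knockdown comparisons, so only its shCtrl values were used as named conditions, and the mean over all 6 for filters.

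Gene names are missing from the vehicle table of shRai1 against shCtrl. Its 20107 genes were named here by their unique mean count and checked by the closure of log2 changes, to within 1e-09. Averages over arms or treatments and differences between arms are combinations made here of deposited log2 changes. Their errors are roots of summed squares, and a two-sided Wald test was adjusted by Benjamini-Hochberg over 18241 genes at 0.1 FPKM or more on average. The computation was tested on simulated data. The plan had allowed for values per library, and summaries took their place. Replicates are separately pooled cultures, per the series' design.

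The members, gene lists, motifs and pairs were chosen with earlier results of these data known. Named in full were the 5 largest rises and falls among called members in each drug comparison, all called members of the shRNA comparisons and differences or else the 3 smallest p, the 3 highest and lowest mean FPKM, and paralogues called in opposite directions; other members are named to account for each role. Symbols matched 58 of 75 members to RefSeq promoters of GRCm38.p6, whose coordinates are kept apart from the mm9 intervals. Of the members, 13 share their deposited interval with another listed gene, and 14 of the 118 pathway genes were not found at a mean count of at least 20. Alternatives were other thresholds (0.01 and 0.1), another set of genes for the adjustment, centring on the median gene, a mean count of at least 200 and the pooled FPKM with pseudocounts of 0.1 and 1, and, chosen after seeing the data, members with an interval of their own. Python 3.11.15, numpy 2.4.6, pandas 2.3.3, scipy 1.17.1 and matplotlib 3.10.9 were used.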

Additional observations from a re-analysis of the deposited data

Results flagged for a closer look

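The TTX response of Chd7 differed between the arms by the test of the difference itself, by 0.40 on the log2 scale (shRai1 minus shCtrl, 0.21 to 0.60, adjusted p = 0.0106). That of Hdac4 differed by -0.38 (-0.59 to -0.17, adjusted p = 0.0424). Both values compare the same 4 groups of 2 or 3 libraries.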

How the results depend on the processing

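Of the counts of called members, 48 alternatives bore on a reported count above 0, and 46 of these stayed within 1.5 times it. The split by direction moved more in places: among the 62 members with an interval of their own, the calls under BIC in shCtrl went from 21 higher and 15 lower to 18 and 9, and at an adjusted p under 0.1 the lower calls for the difference in TTX response went from 1 to 2. The other 24 bore on reported counts of 0, which stayed at 0 and say nothing about stability. At an adjusted p under 0.01 the 1 call in shRai1 vehicle became 0 and the 2 calls for the difference in TTX response became 0. The difference for Hdac4 kept an adjusted p of 0.0491 with log2 changes centred on the median gene, and that for Chd7 ranged from 0.00823 to 0.0106 over the settings. The log2 ratio of pooled FPKM had the sign of the deposited change for 27 of 31 called members under TTX and 33 of 36 under BIC in shCtrl. At a pseudocount of 0.1, however, it was under 0.5 times that change for 5 and 11 of these, among them Hdac1 under TTX (0.0045) and Kdm1a and Smarcc1 under BIC (0.017 and 0.0018). At a pseudocount of 1 it was also under 0.5 times for Chd1 (-0.22 against -0.51) and Ezh1 (0.22 against 0.48) under TTX. It reversed at pseudocounts of 0.1 and 1 under TTX for Arid3b (0.012 and 0.010), Kdm2b (-0.016 and -0.015), Kdm4d (-0.12 and -0.076) and Kdm7a (0.079 and 0.074). Under BIC it reversed for Arid3b (0.50 and 0.43), Sirt2 (-0.15 and -0.14) and Smarca4 (-0.074 and -0.071). The cause was not tested. No paired analysis was possible because the tables used here hold no values per library, and for the same reason leaving out a replicate was not run, so a call that rests on 1 of 2 libraries cannot be seen. Depth per library is unknown.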

Other observations

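Kdm5d, which lies on the Y chromosome, had a lower value in shRai1 vehicle, -0.47 in the authors' deposited table (unadjusted p = 0.00500, adjusted p = 0.189 by DESeq2), which did not pass. In the same comparison of the authors' deposited table Ddx3y was at -0.36 (unadjusted p = 0.0148), Uty at -0.19, Eif2s3y at -0.16 and the X-linked Xist at -0.28 (unadjusted p = 0.0185), none past the threshold of DESeq2. Under BIC the Y-linked genes differed in their values. In the authors' deposited table Uty rose by 0.62 in shCtrl and 0.93 in shRai1 and Ddx3y by 0.87 in shRai1, while Kdm5d was at -0.41 and 0.11 and Eif2s3y at 0.13 and 0.27 without passing.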
